A study of Mus musculus with 36 samples.

Results

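N4bp1 knockout (KO) and wild-type (WT) mouse macrophages were compared for the RNA that depended on transcription between 3 h and 7 h of R837. Of the 36 libraries of the series, 12 in 4 groups of 3 hold that comparison, chosen by genotype and treatment as labelled. They are N4bp1 KO with R837 for 7 h, N4bp1 KO with R837 for 3 h followed by 4 h with actinomycin D (ActD), WT with R837 for 7 h, and WT with R837 for 3 h followed by 4 h with ActD. All are bone marrow-derived macrophages (BMDMs) grown in M-CSF, each library per the labels from an individual mouse. The labels name C57BL/6N for wild-type mice. The background of the KO mice, the deleted exons, the age of the mice and whether R837 stayed on the cells during ActD are not given in the sources used here. Every group had received R837, and no unstimulated macrophages were analysed here.

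R837 (imiquimod) activates Toll-like receptor 7 (TLR7), an endosomal receptor for single-stranded RNA that signals through MyD88, the IKK complex and NF-kB to cytokine genes. N4BP1 is a ubiquitin-binding protein with an RNase domain. It restrains cytokine production downstream of TLR7 and is cut by caspase-8. Cytokine messages are typically made in bursts and removed quickly by RNA-binding proteins such as tristetraprolin and Regnase-1. ActD stops transcription by binding DNA, so RNA present after ActD is what was left of the RNA made earlier.

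Within each genotype, the level at 7 h was set over the level after ActD, 7 h from the first R837 in both cases. This ratio, on the log2 scale, is called the KO arm or the WT arm here. It is positive where transcription in the last 4 h kept a transcript above what remained without it, relative to the average transcript of the library. The interaction is the KO arm minus the WT arm. A value of 1 means that the KO ratio was 2-fold the WT ratio. Levels are CPM, counts scaled by library size and TMM factor, and a gene was called at an adjusted p under 0.05. Values after ± are approximate SE on the log2 scale, the absolute log2 value over the square root of its F statistic.

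The 12 libraries held 20271550 to 46107214 counts. No pair within a group agreed within sampling noise. One library stood apart: replicate 3 of WT after ActD differed from its group members by a chi-square per gene of 26.6 and 23, against 6.76 between those members. The summed level of 9 macrophage markers, all detected, was 25000 to 25400 CPM in KO at 7 h and 35400 to 36600 CPM in KO after ActD, against 24500 to 24800 CPM in WT at 7 h and 38600 to 51400 CPM in WT after ActD. B and plasma cell markers summed to 138 to 142 CPM in KO at 7 h and 148 to 151 CPM in KO after ActD, against 64.4 to 75.5 CPM in WT at 7 h and 56.5 to 67 CPM in WT after ActD. Fibroblast and stromal markers summed to 66 to 74.5 CPM and 76.7 to 80.1 CPM in these KO groups, against 39.3 to 41.7 CPM and 37.8 to 42.7 CPM in these WT groups. Neutrophil markers summed to 876 to 914 CPM in KO at 7 h and 675 to 789 CPM in KO after ActD. In WT they summed to 587 to 605 CPM at 7 h and 623 to 883 CPM after ActD, so the genotypes were apart at 7 h only. The part of these cells in the results below was not tested. In such bulk libraries, fewer cells of a type and less RNA per cell cannot be told apart.

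N4bp1 itself (chromosome 8, positions 86808160 to 86885258, minus strand, GRCm38) was counted in all 12 libraries. It had 145, 141 and 143 CPM in KO at 7 h and 94.2, 92.2 and 76.8 CPM in KO after ActD, against 171, 182 and 170 CPM in WT at 7 h and 63.3, 56.1 and 53.4 CPM in WT after ActD. Its KO libraries thus lay below WT at 7 h and above WT after ActD. A count over the whole gene does not say whether the deleted exons were present, so it did not check the genotype, and KO and WT below are the groups as labelled.

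Of 13748 genes tested, the interaction was called higher for 922 (6.71%) and lower for 1091 (7.94%). Called changes of at least 2-fold were 130 higher (0.946%) and 193 lower (1.4%). Called genes included 13 of 22 cytokines, F3 and the receptor Trem1 on the higher side, and Irf5, Maf, Pparg and Tlr13 on the lower side. Some families were mixed. In the Toll-like receptor pathway 7 of 27 were lower and 3 higher, and in the matrix, protease and coagulation list 9 of 19 were higher and 5 lower. Without replicate 3 of WT after ActD, 580 genes were called higher and 794 lower. In 1079 genes the call and its direction were the same in every fit that left out 1 of the 12 libraries. The split between directions depended on scaling. With each library scaled to its ribosomal protein and elongation factor counts in place of TMM, 220 were called higher and 2671 lower, or 7.6% higher among calls against 45.8% with TMM. That scaling moved the median interaction of all genes to -0.29, against -0.01 with TMM, so directions below are relative to the average gene. With TMM, the 52 tested genes of that reference had a median interaction of 0.30. After ActD 25 of them were called lower in KO and 1 higher, and at 7 h 0 were called. Counts under ribosomal scaling carry this shift of the reference, and which scaling was closer to RNA per cell was not tested.

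Most transcripts moved in the same direction in both genotypes. The KO arm was called higher for 5224 genes (38%) and lower for 4963 (36.1%). The WT arm was called higher for 5216 genes (37.9%) and lower for 5132 (37.3%). The arms share no library. A total of 4662 genes were called higher in both, 89.2% of the KO calls and 89.4% of the WT calls. Another 4235 were called lower in both, 85.3% of the KO calls and 82.5% of the WT calls. Opposite calls were few: 44 genes were higher in KO and lower in WT, and 51 were lower in KO and higher in WT.

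**Figure D1:**
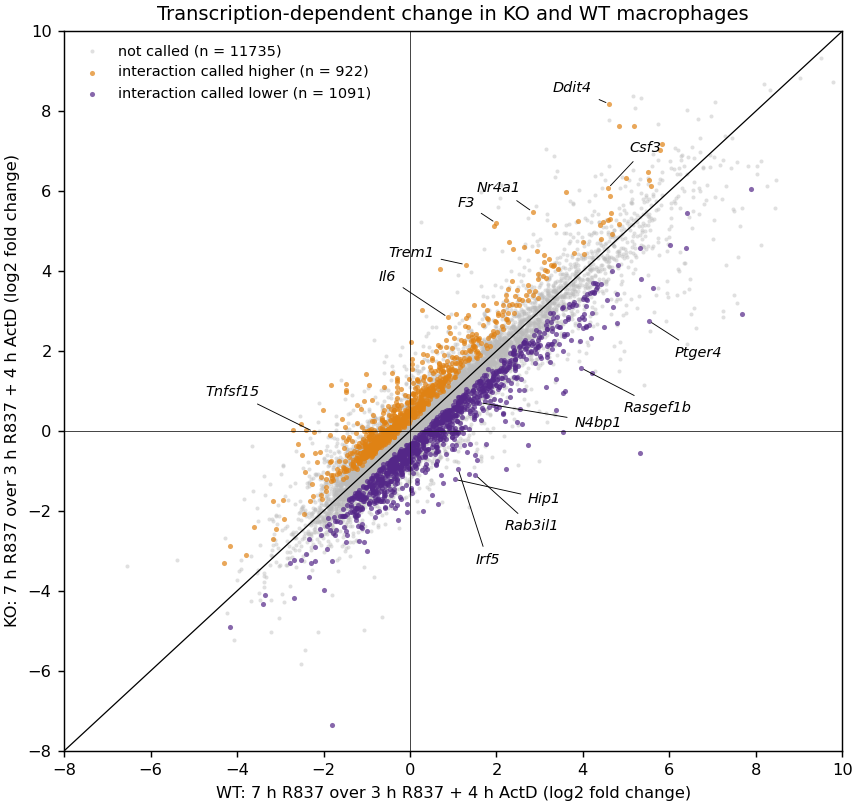
Log2 ratio of the level at 7 h over that after ActD in KO (vertical axis) and WT (horizontal axis) for 13748 genes. Genes with a called interaction are coloured, 922 above the line of equality and 1091 below it, and the named genes keep the positions given in the text.

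The largest positive interactions are ranked among genes with a mean of at least 5 CPM whose call held in every fit that left out a library. The first 4 were Ddit4, F3, Trem1 and Nr4a1. Their promoters are shown as the DNA from 250 bases before to 50 bases after the RefSeq start site (GRCm38.p6), 5′ to 3′, with motif matches in capitals. Motifs were searched on both strands: the NF-kB consensus, the AP-1 motif TGANTCA and the cAMP response element TGACGTCA. Ddit4 lies at chr10:59951721-59952020 (minus strand), F3 at chr3:121723287-121723586 (plus), Trem1 at chr17:48232489-48232788 (plus) and Nr4a1 at chr15:101266596-101266895 (plus).
Ddit4: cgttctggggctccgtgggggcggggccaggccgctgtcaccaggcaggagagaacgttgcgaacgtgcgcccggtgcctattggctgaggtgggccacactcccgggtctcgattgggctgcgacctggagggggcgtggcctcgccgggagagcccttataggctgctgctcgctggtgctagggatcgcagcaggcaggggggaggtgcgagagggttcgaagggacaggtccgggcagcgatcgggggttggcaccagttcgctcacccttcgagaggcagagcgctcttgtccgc
F3: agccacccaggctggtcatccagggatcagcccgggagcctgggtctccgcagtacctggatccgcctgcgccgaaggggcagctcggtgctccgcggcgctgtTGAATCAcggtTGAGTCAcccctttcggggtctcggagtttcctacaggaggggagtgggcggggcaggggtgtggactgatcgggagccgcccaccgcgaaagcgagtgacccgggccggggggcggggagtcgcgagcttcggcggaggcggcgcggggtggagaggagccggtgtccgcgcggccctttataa
Trem1: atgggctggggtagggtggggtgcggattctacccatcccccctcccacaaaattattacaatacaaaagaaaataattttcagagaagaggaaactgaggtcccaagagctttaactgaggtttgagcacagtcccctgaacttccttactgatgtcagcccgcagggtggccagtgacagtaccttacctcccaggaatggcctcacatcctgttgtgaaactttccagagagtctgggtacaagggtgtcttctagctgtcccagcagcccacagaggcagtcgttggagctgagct
Nr4a1: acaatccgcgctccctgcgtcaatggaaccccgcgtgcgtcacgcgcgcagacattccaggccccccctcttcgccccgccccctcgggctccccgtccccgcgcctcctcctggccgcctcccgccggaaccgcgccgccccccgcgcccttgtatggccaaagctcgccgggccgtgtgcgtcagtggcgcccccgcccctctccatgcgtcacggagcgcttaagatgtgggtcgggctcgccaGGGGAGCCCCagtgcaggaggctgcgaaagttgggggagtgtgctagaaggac
The F3 window held 2 AP-1 matches that began 146 and 135 bases before the start site, and the Nr4a1 window held 1 NF-kB consensus match that began 3 bases before it. Among 32851 RefSeq promoter windows of this length, 8.46% held an NF-kB consensus match, 7.81% an AP-1 match and 1.79% a cAMP response element. A match describes letters only, and the absence of one says nothing about a factor.

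Ddit4, an inhibitor of mTORC1 that is induced by stress, had the largest positive interaction of the ranked genes. It had 77.6, 86.4 and 82.9 CPM in KO at 7 h and 0.315, 0.329 and 0.185 CPM in KO after ActD, against 8.38, 11.4 and 10.7 CPM in WT at 7 h and 0.167, 0.548 and 0.493 CPM in WT after ActD. The genotypes were far apart at 7 h and overlapped after ActD, where little of the transcript was left. The interaction was 3.57 ± 0.50 (edgeR quasi-likelihood, adjusted p = 1.3e-06), a KO ratio 11.9-fold the WT ratio. F3 encodes tissue factor, which starts the coagulation cascade. It had 26.6, 29.3 and 28 CPM in KO at 7 h and 0.921, 1.04 and 0.297 CPM in KO after ActD, against 3.98, 3.46 and 3.92 CPM in WT at 7 h and 1.34, 0.822 and 0.712 CPM in WT after ActD. KO again overlapped WT after ActD and exceeded it at 7 h, with an interaction of 3.21 ± 0.39.

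Trem1, a receptor that amplifies TLR signals in myeloid cells, had 101, 104 and 107 CPM in KO at 7 h and 5.62, 6.83 and 5.15 CPM in KO after ActD, against 12.5, 13.4 and 14.7 CPM in WT at 7 h and 4.51, 5.53 and 6.52 CPM in WT after ActD. Its WT libraries at 7 h were higher than after ActD by 1.29 on the log2 scale, and its KO libraries by 4.16. The interaction of 2.87 ± 0.17 had an adjusted p of 7.2e-16 (edgeR quasi-likelihood). Nr4a1, an orphan nuclear receptor and immediate early gene, had 27.4, 30.7 and 26.9 CPM in KO at 7 h and 0.461, 0.424 and 1.04 CPM in KO after ActD, against 4.63, 4.54 and 4.61 CPM in WT at 7 h and 0.78, 0.411 and 0.767 CPM in WT after ActD. After ActD the genotypes overlapped, and the interaction was 2.65 ± 0.40. Stambpl1, a deubiquitinase for lysine-63 chains, had the same form, with means of 55.5 CPM in KO at 7 h and 2.16 CPM in KO after ActD, against 12.7 CPM in WT at 7 h and 2.59 CPM in WT after ActD. D16Ertd472e followed with an interaction of 2.15 ± 0.23.

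Tnfsf15 reached a positive interaction in another way: its WT level was lower at 7 h than after ActD. Tnfsf15, the TNF-family cytokine TL1A, had means of 18.6 CPM in KO at 7 h and 18.7 CPM in KO after ActD, against 1.37 CPM in WT at 7 h and 6.46 CPM in WT after ActD. Its KO arm was -0.02 and not called, its WT arm was -2.23, and the interaction was 2.21 ± 0.22.

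**Figure D2:**
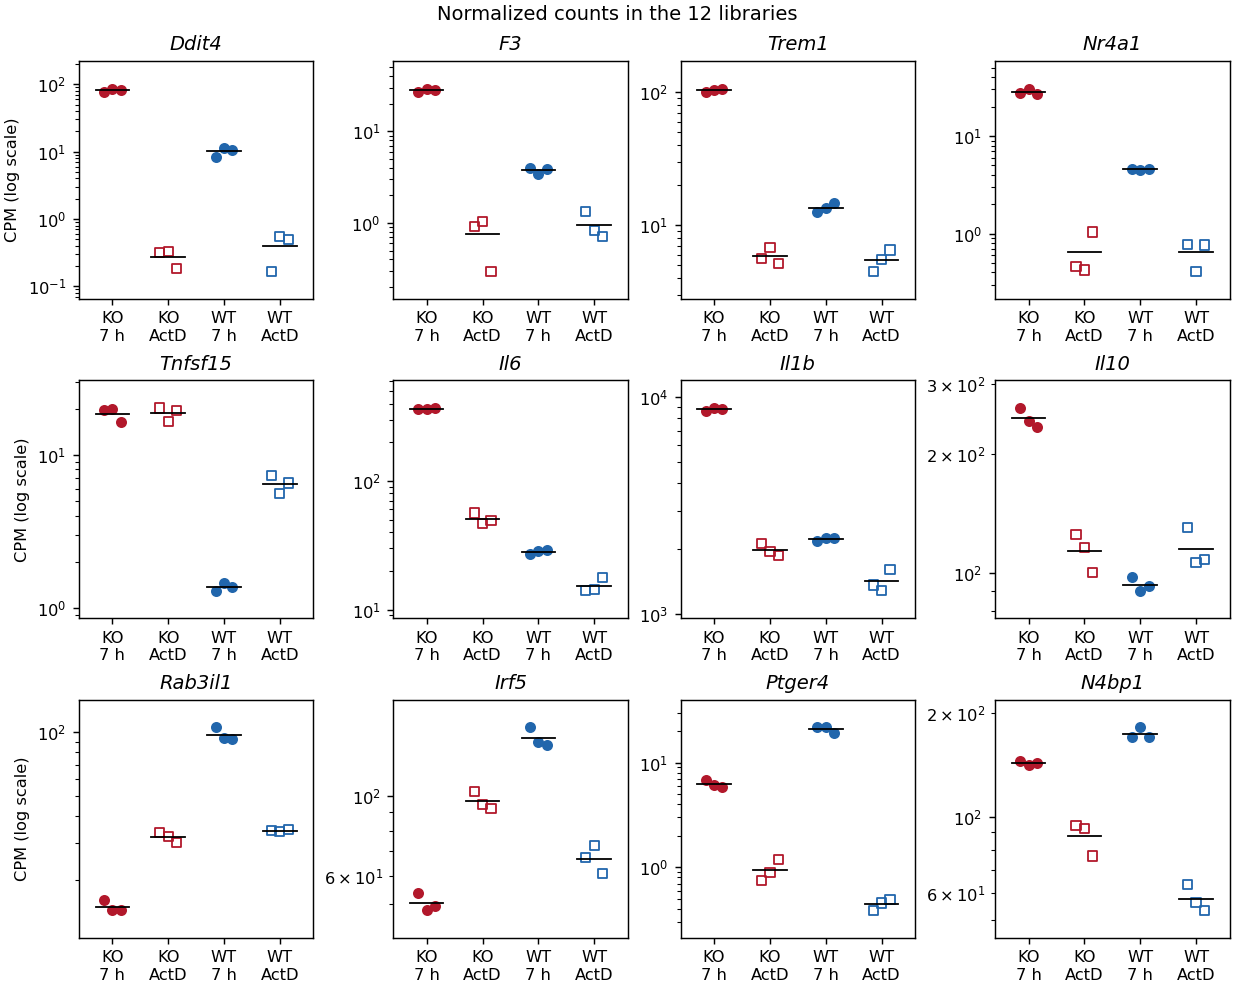
TMM-normalized CPM on a log scale in each library (points) with the group mean (line) for 12 genes, in KO at 7 h, KO after ActD, WT at 7 h and WT after ActD. KO libraries at 7 h lie above all WT libraries at 7 h for Ddit4, F3, Trem1, Nr4a1, Tnfsf15, Il6, Il1b and Il10, and below them for Rab3il1, Irf5, Ptger4 and N4bp1.

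Cytokine genes were called higher in 13 of 22 tested and lower in none (10 and 0 under ribosomal scaling). Their median interaction was 1.34 against -0.01 over all genes. The counts of this and every later list stand against 6.71% called higher and 7.94% called lower over all genes tested. Members and lists were chosen with earlier results of these data known, so this comparison is a description. The called members span the IL-1 family (Il1a, Il1b and Il18), Il6, the IL-12 family (Il12b and Il27), the IL-10 family (Il10 and Il19), Csf3, Inhba, Il15, Tnfsf15 and Tnf. Il6, the main inducer of the acute phase response (chromosome 5, positions 30013114 to 30019981), had 361, 362 and 370 CPM in KO at 7 h and 56.3, 46.9 and 48.9 CPM in KO after ActD, against 27.2, 28.4 and 29.1 CPM in WT at 7 h and 14, 14.3 and 17.8 CPM in WT after ActD. KO lay above WT in both conditions, by 3.69 at 7 h and by 1.73 after ActD on the log2 scale. The interaction was 1.96 ± 0.17 (edgeR quasi-likelihood, adjusted p = 2.3e-11). In level, the mean at 7 h exceeded the mean after ActD by 314 CPM in KO and by 12.9 CPM in WT, a description with no test.

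Il1b, the pyrogenic substrate of caspase-1, had 8680, 8930 and 8820 CPM in KO at 7 h and 2110, 1950 and 1860 CPM in KO after ActD, against 2170, 2240 and 2230 CPM in WT at 7 h and 1360, 1280 and 1610 CPM in WT after ActD. No KO library overlapped a WT library of the same condition, and the interaction was 1.52 ± 0.12 (edgeR quasi-likelihood, adjusted p = 1.1e-12). Il1a, its partner ligand for the same receptor, had an interaction of 1.71 ± 0.17, with means of 719 CPM in KO at 7 h and 118 CPM in KO after ActD, against 86.6 CPM in WT at 7 h and 46.3 CPM in WT after ActD. Il19, a cytokine of the IL-10 family, had an interaction of 1.83 ± 0.17. It averaged 221 CPM in KO at 7 h and 6.14 CPM in KO after ActD, against 78.1 CPM in WT at 7 h and 7.83 CPM in WT after ActD. Csf3 (G-CSF, the growth factor of neutrophils) averaged 339 CPM in KO at 7 h and 5.02 CPM in KO after ActD, against 61.3 CPM in WT at 7 h and 2.57 CPM in WT after ActD, with an interaction of 1.49 ± 0.21.

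The cytokines with the smaller interactions differed in form. Il12b, a subunit of IL-12 and IL-23, averaged 820 CPM in KO at 7 h and 904 CPM in KO after ActD, against 216 CPM in WT at 7 h and 575 CPM in WT after ActD. Its KO arm was not called, its WT arm was -1.41, and the interaction was 1.27 ± 0.19. Il27 was lower at 7 h than after ActD in both genotypes, by a KO arm of -1.03 and a WT arm of -2.44. Tnf had 1390, 1320 and 1350 CPM in KO at 7 h and 46.8, 44.5 and 41.6 CPM in KO after ActD, against 583, 550 and 584 CPM in WT at 7 h and 22.4, 24.6 and 20.3 CPM in WT after ActD. KO stood above WT in both conditions, by 1.24 at 7 h and 0.98 after ActD on the log2 scale. The interaction of Tnf was 0.26 ± 0.09 (edgeR quasi-likelihood, adjusted p = 0.034), was -0.01 under ribosomal scaling, and lost its call without any of 7 libraries taken out singly. In level, the mean at 7 h exceeded the mean after ActD by 1310 CPM in KO and 550 CPM in WT. The 9 members not called had interactions of -0.01 for the receptor antagonist Il1rn to 1.78 for Lif, which averaged 3.80 CPM or less in every group.

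Chemokine genes were called higher in 10 of 19 tested and lower in 2, with a median of 0.51. Under ribosomal scaling 6 were higher and 4 lower. The neutrophil attractants Cxcl1, Cxcl2 and Cxcl3 had interactions of 1.11 ± 0.15, 1.15 ± 0.13 and 1.20 ± 0.13. Cxcl2 averaged 1629 CPM in KO at 7 h and 656 CPM in KO after ActD, against 324 CPM in WT at 7 h and 289 CPM in WT after ActD, where the WT arm was not called. Cxcl10, an interferon-inducible attractant of T cells, was lower at 7 h than after ActD in both genotypes. It had 223, 219 and 240 CPM in KO at 7 h and 1770, 1590 and 1700 CPM in KO after ActD, against 156, 159 and 162 CPM in WT at 7 h and 2980, 2960 and 2580 CPM in WT after ActD. KO was above WT at 7 h and below it after ActD, with an interaction of 1.27 ± 0.11. Ccl5 had a smaller interaction of 0.62 ± 0.18, which ribosomal scaling put at 0.35 and not called. Ccl6 and Ccl22 were called lower, by -0.34 and -0.51.

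Transcripts known as targets of the RNase Regnase-1 (encoded by Zc3h12a) were called higher in 11 of 15 tested and lower in none. Their median was 1.15, and 9 were higher and 0 lower under ribosomal scaling. Transcripts known for AU-rich elements were called higher in 15 of 24 and lower in 3 (Plau, Zfp36 and Fos), with a median of 0.96. Of these 24, 11 were higher and 3 lower under ribosomal scaling. Both lists share members with the cytokines and chemokines. Ptgs2 (cyclooxygenase 2, which makes prostaglandins) was on both lists. It had 4740, 4830 and 4510 CPM in KO at 7 h and 1610, 1350 and 1310 CPM in KO after ActD, against 897, 921 and 965 CPM in WT at 7 h and 920, 709 and 681 CPM in WT after ActD. KO libraries were above WT in both conditions, WT libraries overlapped between conditions, and the interaction was 1.45 ± 0.13. Zfp36, which encodes the decay factor tristetraprolin, averaged 577 CPM in KO at 7 h and 24.2 CPM in KO after ActD, against 418 CPM in WT at 7 h and 10.5 CPM in WT after ActD, with an interaction of -0.75 ± 0.15. Zc3h12a itself, at 0.42, was not called.

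Enzymes of prostaglandin, nitric oxide and itaconate synthesis were called higher in 8 of 15 and lower in 2 (6 and 3 under ribosomal scaling). Their median was 0.28. Arg2, the mitochondrial arginase, had an interaction of 1.52 ± 0.13, and Nos2, the inducible nitric oxide synthase, 1.25 ± 0.15. Nos2 averaged 1986 CPM in KO at 7 h and 579 CPM in KO after ActD, against 788 CPM in WT at 7 h and 548 CPM in WT after ActD. The matrix, protease and coagulation list was called higher in 9 of 19 and lower in 5 (6 and 7 under ribosomal scaling). Beside F3, the adhesive glycoprotein gene Thbs1 had an interaction of 1.40 ± 0.15. Thbd, which encodes thrombomodulin, a brake on coagulation, had -1.84 ± 0.48, with means of 1.74 CPM in KO at 7 h and 0.325 CPM in KO after ActD, against 9.09 CPM in WT at 7 h and 0.49 CPM in WT after ActD. Among pattern-recognition and Fc receptors 4 of 19 were called higher and 1 lower (3 and 5 under ribosomal scaling), with Trem3 at 1.25 ± 0.22. Among acute phase and complement genes 4 of 15 were higher and none lower (3 and 3 under ribosomal scaling, 4 and 2 with the trend with gene length removed), with haptoglobin (Hp) at 1.00 ± 0.13 and lipocalin 2 (Lcn2) at 0.60 ± 0.09. The call of Lcn2 was lost under ribosomal scaling.

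Some genes changed in opposite directions in KO and WT. Predicted genes aside, 958 genes had a call that held in every fit that left out a library and a mean of at least 5 CPM. Among them, 31 were called higher in the KO arm and lower in the WT arm, and 39 the other way round. The calls of the arms chose these genes, so their values are a description. Smim3, a small membrane protein, had 210, 217 and 211 CPM in KO at 7 h and 69.2, 79 and 83.6 CPM in KO after ActD, against 74.6, 76.7 and 72.8 CPM in WT at 7 h and 93.2, 95.6 and 112 CPM in WT after ActD. KO at 7 h was the highest group and WT after ActD the next. Il10, the anti-inflammatory cytokine, had 261, 242 and 234 CPM in KO at 7 h and 125, 116 and 99.9 CPM in KO after ActD, against 97.5, 90 and 92.4 CPM in WT at 7 h and 130, 106 and 108 CPM in WT after ActD. The genotypes overlapped after ActD, and the interaction of 1.41 ± 0.14 came with a KO arm of 1.11 and a WT arm of -0.30. Ccrl2, an atypical receptor that binds chemerin, had an interaction of 1.86 ± 0.11, the transcription factor gene Crem 1.26 ± 0.15, and the metallothionein gene Mt2 1.04 ± 0.13.

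In the other direction, Irf5 encodes a transcription factor that acts downstream of TLR7 and MyD88 (chromosome 6, positions 29526625 to 29541871). It had 53.6, 48.1 and 49.5 CPM in KO at 7 h and 103, 94.7 and 92.2 CPM in KO after ActD, against 155, 141 and 138 CPM in WT at 7 h and 67.2, 72.6 and 60.8 CPM in WT after ActD. KO at 7 h was the lowest and WT at 7 h the highest of the 4 groups, and no library of one overlapped another group. The interaction was -2.05 ± 0.11 (edgeR quasi-likelihood, adjusted p = 9.9e-17). Rab3il1, an exchange factor for Rab3 GTPases (chromosome 19, positions 10001669 to 10038380), had 16.2, 14.5 and 14.5 CPM in KO at 7 h and 33.7, 32.1 and 30.2 CPM in KO after ActD, against 105, 93.4 and 92.9 CPM in WT at 7 h and 34.2, 33.9 and 34.8 CPM in WT after ActD. After ActD its WT libraries lay just above its KO libraries, and at 7 h they were far above. Its interaction was -2.58 ± 0.12. Mtss1, a membrane-bending regulator of actin, had an interaction of -2.26 ± 0.16, the endocytic adaptor gene Hip1 -2.24 ± 0.19, and the kinase gene Cdk20 -1.83 ± 0.12.

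The interaction can also be read as the KO minus WT difference at 7 h less that after ActD. At 7 h, 2126 genes were called higher in KO (15.5%) and 2075 lower (15.1%). After ActD, 2439 were called higher in KO (17.7%) and 2457 lower (17.9%). These contrasts share no library, though they may share mice. Higher in KO in both were 1106 genes, 52% of those higher at 7 h and 45.3% of those higher after ActD. Lower in KO in both were 922 genes, 44.4% and 37.5% of those lower in KO in these conditions. Another 75 were higher in KO at 7 h and lower after ActD, and 124 the reverse.

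Many called interactions came with a genotype difference at 7 h and little difference after ActD. Among the 958 genes defined above, those with a genotype call at 7 h but not after ActD were taken. Their difference after ActD also had to lie within 0.25 on the log2 scale. There were 122 such genes with a positive and 195 with a negative interaction. These counts, like those of the next group, follow from the selection and carry no test. The largest positive ones were Trem1, Nr4a1, Fam217b, Il10 and Nfil3. Nfil3, a basic leucine zipper transcription factor, had 90.4, 95.7 and 93.4 CPM in KO at 7 h and 2.55, 2.45 and 2.3 CPM in KO after ActD, against 33.1, 34.4 and 35.1 CPM in WT at 7 h and 2.95, 2.28 and 1.75 CPM in WT after ActD. KO and WT overlapped after ActD only. The most negative ones were Rab3il1, Hip1, Rab7b, Fgd4 and Atp6v0a1. Rab7b, a GTPase of late endosomes and lysosomes, averaged 30.8 CPM in KO at 7 h and 38.5 CPM in KO after ActD, against 92.7 CPM in WT at 7 h and 35.4 CPM in WT after ActD. Atp6v0a1, a subunit of the proton pump that acidifies lysosomes, averaged 18.7 CPM in KO at 7 h and 61.3 CPM in KO after ActD, against 47.3 CPM in WT at 7 h and 54.1 CPM in WT after ActD.

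Of the same 958 genes, 77 with a positive and 134 with a negative interaction met the converse pattern. It was a genotype call after ActD and a difference within 0.25 at 7 h with no call. Hcar2, the receptor for niacin and beta-hydroxybutyrate, had 420, 418 and 418 CPM in KO at 7 h and 170, 159 and 189 CPM in KO after ActD, against 343, 357 and 366 CPM in WT at 7 h and 251, 273 and 338 CPM in WT after ActD. At 7 h its KO libraries were above its WT libraries, by 0.24 on the log2 scale. That was just short of a call (edgeR quasi-likelihood, adjusted p = 0.0515). Its WT libraries after ActD were above the KO libraries, and replicate 3 was the highest. Wfdc17, a small secreted protein with a WAP domain, averaged 2445 CPM in KO at 7 h and 892 CPM in KO after ActD, against 2095 CPM in WT at 7 h and 1190, 1230 and 1900 CPM in WT after ActD. Without that replicate 3 the interaction of Hcar2 was 0.83 and that of Wfdc17 0.66, against 0.97 and 0.91 with it, and both kept their call. Fam162a (0.96 ± 0.14), Spryd4 (0.96 ± 0.21) and the coactivator gene Ncoa7 (0.90 ± 0.16) were the others among the 5 largest positive ones. The 5 most negative ones were Slco4a1, the zinc finger gene Zfp703, the enolase gene Eno2, the myosin gene Myo1g and the ubiquitin ligase gene Rnf103. Myo1g averaged 106 CPM in KO at 7 h and 342 CPM in KO after ActD, against 122 CPM in WT at 7 h and 192 CPM in WT after ActD.

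**Figure D3:**
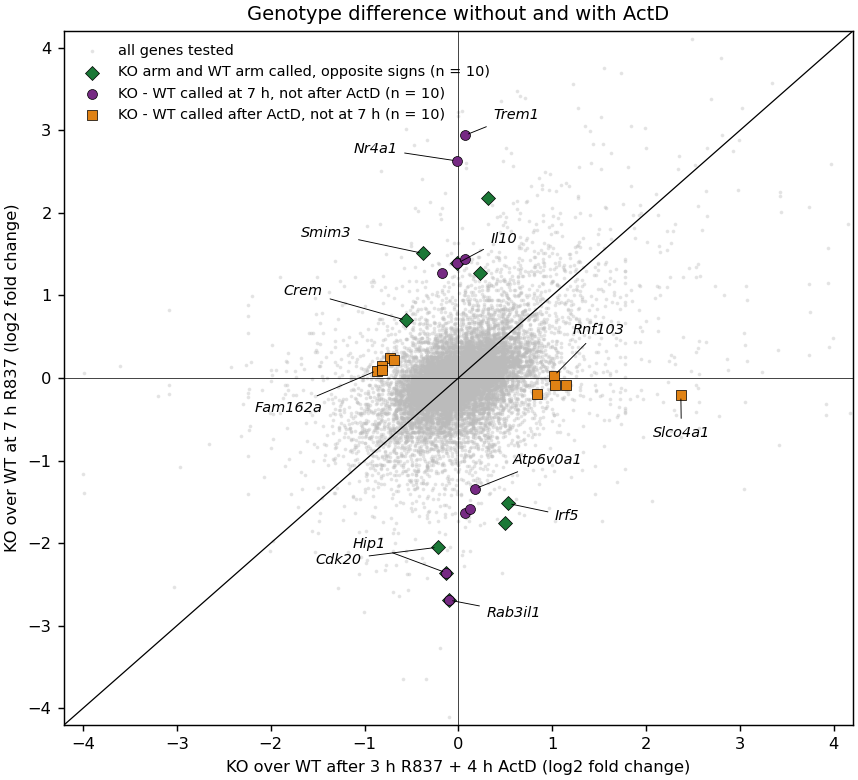
KO over WT (log2) at 7 h of R837 (vertical axis) against KO over WT after ActD (horizontal axis), with all genes tested in grey and the interaction as the vertical distance from the line of equality. Green diamonds are genes with opposite calls in the arms, purple circles genes with a genotype call at 7 h only, and orange squares genes with one after ActD only (10 each). Trem1, Nr4a1, Rab3il1 and Hip1 lie near 0 on the horizontal axis, and Slco4a1, Rnf103 and Fam162a near 0 on the vertical axis.

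The most negative interaction of the ranked genes was that of Ptger4, which encodes the prostaglandin E2 receptor EP4. It had 6.83, 6.05 and 5.83 CPM in KO at 7 h and 0.752, 0.894 and 1.19 CPM in KO after ActD, against 21.7, 21.6 and 19 CPM in WT at 7 h and 0.39, 0.457 and 0.493 CPM in WT after ActD. KO lay below WT at 7 h and above WT after ActD, and the interaction was -2.77 ± 0.36 (edgeR quasi-likelihood, adjusted p = 2.8e-07). Rasgef1b, an exchange factor for small GTPases that TLR ligands induce, had 29.4, 24.7 and 29.8 CPM in KO at 7 h and 9.58, 8.52 and 9.75 CPM in KO after ActD, against 91, 88.7 and 86.4 CPM in WT at 7 h and 6.69, 5.71 and 4.82 CPM in WT after ActD. The same order of groups held, with an interaction of -2.37 ± 0.16. Sesn1, a p53 target that restrains mTORC1, had -2.03 ± 0.23, with means of 3.32 CPM in KO at 7 h and 1.58 CPM in KO after ActD, against 19.8 CPM in WT at 7 h and 2.25 CPM in WT after ActD. Trib1, a pseudokinase that directs the breakdown of C/EBP-alpha, averaged 32.3 CPM in KO at 7 h and 0.482 CPM in KO after ActD, against 58.2 CPM in WT at 7 h and 0.245 CPM in WT after ActD. Its interaction was -1.83 ± 0.45.

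In the Toll-like receptor pathway 7 of 27 genes tested were called lower and 3 higher, with a median of -0.09. Under ribosomal scaling 11 were lower and 2 higher. Beside Irf5, the lower ones were the receptors Tlr1, Tlr6, Tlr9 and Tlr13, the chaperone Unc93b1 that carries endosomal receptors and the adaptor Ticam1. Tlr13, a receptor for bacterial ribosomal RNA in mice, had 47.9, 42.4 and 46.5 CPM in KO at 7 h and 79.8, 62.8 and 60.7 CPM in KO after ActD, against 117, 105 and 100 CPM in WT at 7 h and 66, 61.1 and 53.3 CPM in WT after ActD. KO and WT overlapped after ActD and were apart at 7 h, with an interaction of -1.41 ± 0.16. Tlr7, the receptor of R837, had -0.22 ± 0.13 and was not called, with means of 211 CPM in KO at 7 h and 171 CPM in KO after ActD, against 209 CPM in WT at 7 h and 146 CPM in WT after ActD. Higher were Cd14, Tlr2 and the kinase gene Map3k8.

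Genes of macrophage identity were called lower in 7 of 17 and higher in 1, with a median of -0.30, lower in 4 without replicate 3 of WT after ActD, and lower in 11 under ribosomal scaling. Among the lower ones were the transcription factor genes Maf and Spi1, the receptors Csf1r and Ccr2, and Cd68. Maf had 107, 113 and 95 CPM in KO at 7 h and 104, 98.9 and 94.6 CPM in KO after ActD, against 289, 288 and 280 CPM in WT at 7 h and 149, 117 and 107 CPM in WT after ActD. Its KO libraries overlapped between conditions while its WT libraries at 7 h were above all others, and the interaction was -1.11 ± 0.13. Cd14, the coreceptor of several Toll-like receptors, was the member called higher, by 0.59 ± 0.07.

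Regulators of lipid handling were called lower in 5 of 15 and higher in none, with a median of -0.24, and lower in 8 under ribosomal scaling. Pparg, a nuclear receptor for fatty acids, had 8.83, 6.89 and 8.83 CPM in KO at 7 h and 18.7, 16.6 and 17.3 CPM in KO after ActD, against 20.5, 19.7 and 18.8 CPM in WT at 7 h and 12.9, 12.4 and 10.4 CPM in WT after ActD. It crossed in the manner of Irf5, with an interaction of -1.83 ± 0.14. The sterol exporter gene Abcg1 had -1.31 ± 0.13. Of lysosome and autophagy genes 4 of 25 were lower and none higher, among them Tfeb, the main transcription factor of lysosome genes, at -1.44 ± 0.24. Under ribosomal scaling 15 of these were lower, and without replicate 3 of WT after ActD 2. Of cholesterol synthesis genes 1 of 22 (Sqle, -0.56 ± 0.10) was lower, below the 7.94% of all genes, and 12 under ribosomal scaling. Of MHC class II genes 2 of 12 were lower (6 under ribosomal scaling, 5 with the trend with gene length removed): Cd74 (-0.39 ± 0.12), which lost its call without any of 4 libraries taken out singly, and Ifi30 (-0.34 ± 0.09).

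The NF-kB pathway and its feedback genes were called higher in 7 of 24 and lower in 2, with a median of 0.11, and higher in 2 and lower in 3 under ribosomal scaling. Tnfaip3 encodes A20, a ubiquitin-editing inhibitor of the pathway. It averaged 1110 CPM in KO at 7 h and 42.1 CPM in KO after ActD, against 429 CPM in WT at 7 h and 26.7 CPM in WT after ActD, with an interaction of 0.71 ± 0.08. Tnfaip2 had 0.56 ± 0.07, not called under ribosomal scaling. IKK family and caspase-8 complex genes were called higher in 3 of 24 and lower in 6 (0 and 9 under ribosomal scaling). Tank, an adaptor of TBK1, had 0.42 ± 0.11 and Otulin, a deubiquitinase of linear chains, -0.35 ± 0.10. Without replicate 3 of WT after ActD none of this list was called higher and 3 were lower, and Tank was not called. The kinases Ikbkb, Chuk and Ikbke, Casp8 and Ripk1 were not called, at interactions of -0.20 to 0.17.

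Decay factors of messenger RNA were called higher in 4 of 31 and lower in 5, with a median of -0.09. Under ribosomal scaling 0 were higher and 9 lower, and without replicate 3 of WT after ActD 2 were higher and 4 lower. Zc3h12d, of the Regnase family, had 29.9, 30.4 and 30.4 CPM in KO at 7 h and 3.44, 2.82 and 2.97 CPM in KO after ActD, against 69.7, 65.9 and 67.5 CPM in WT at 7 h and 4.4, 3.61 and 3.84 CPM in WT after ActD. Its KO libraries lay below its WT libraries in both conditions, and its interaction was -0.83 ± 0.14. Immediate early and AP-1 genes were called higher in 5 of 25 and lower in 3 (2 and 4 under ribosomal scaling), although 24 of them were called higher in each arm. Ier3 had 0.76 ± 0.15, not called under ribosomal scaling, and Fos -0.95 ± 0.25. Of MAP kinase phosphatase and sprouty genes, 1 was higher and 1 lower under ribosomal scaling. With TMM 1 of 14 was called, Dusp16 at 1.06 ± 0.10, near the 6.71% of all genes called higher. Dusp14, at 1.55 ± 0.57 on means under 1 CPM, was not.

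SOCS and STAT3 pathway genes were called higher in 4 of 17 and lower in 5 (3 and 6 under ribosomal scaling). Jak2, the kinase of several cytokine receptors, averaged 430 CPM in KO at 7 h and 498 CPM in KO after ActD, against 167 CPM in WT at 7 h and 355 CPM in WT after ActD, with an interaction of 0.88 ± 0.10. The repressor gene Etv3 had -0.79 ± 0.10. Socs1, an inhibitor of JAK kinases, had a large but imprecise interaction of 2.81 ± 0.86 (edgeR quasi-likelihood, adjusted p = 0.0215), on means of 23.2 CPM in KO at 7 h and 0.134 CPM in KO after ActD, against 6.48 CPM in WT at 7 h and 0.233 CPM in WT after ActD. Type I interferon response genes were called higher in 3 of 33 and lower in 5, with a median of 0.05. Under ribosomal scaling 3 were higher and 8 lower, and without replicate 3 of WT after ActD 4 were higher and 3 lower. Beside Cxcl10, Usp18, which removes ISG15, had 0.88 ± 0.11. Costimulation and checkpoint genes were called higher in 6 of 18 and lower in 3 (4 and 3 under ribosomal scaling), with Cd83 at 1.23 ± 0.12 and Vsir at -0.73 ± 0.09. Inflammasome and cell death genes were called higher in 5 of 25 and lower in 2 (1 and 8 under ribosomal scaling), the survival gene Bcl2l1 at -0.56 ± 0.09 and the death gene Bcl2l11 at -0.73 ± 0.12.

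NRF2 antioxidant genes were called higher in 6 of 16 and lower in none (2 higher under ribosomal scaling), with the cystine transporter gene Slc7a11 at 1.25 ± 0.13 and the thioredoxin reductase gene Txnrd1 at 0.71 ± 0.07. Glycolysis and hypoxia genes were called higher in 7 of 24 and lower in 2, but higher in none and lower in 3 under ribosomal scaling, where Hif1a (0.63 ± 0.09) and Pdk1 (0.45 ± 0.08) lost their calls. Proliferation genes were called higher in 7 of 24 and lower in none (3 and 1 under ribosomal scaling), with Mki67 at 1.08 ± 0.21 and the cell cycle kinase gene Cdk1 at 0.80 ± 0.13. Mki67 averaged 16.5 CPM in KO at 7 h and 28.1 CPM in KO after ActD, against 6.28 CPM in WT at 7 h and 22.8 CPM in WT after ActD. Most of the list was lower in KO than in WT in both conditions, unlike Mki67. KO minus WT was called lower for 17 of 24 and higher for 1 at 7 h, with a median of -0.49. After ActD 20 were called lower and 0 higher, with a median of -0.74. Of p53 targets 1 of 17 was higher (Gadd45a, 0.97 ± 0.14), near the 6.71% of all genes, and 3 lower, or 6 lower under ribosomal scaling. Of stress response genes 4 of 20 were higher and 3 lower, against 2 and 6 under ribosomal scaling and 2 and 3 without replicate 3 of WT after ActD. KLF, ID and helix-loop-helix regulators held 1 higher of 17 (Id3, 0.84 ± 0.14), again near the share of all genes. Lower were 4 (6 under ribosomal scaling), among them Id2 at -0.72 ± 0.11. Of 10 mitochondrially encoded genes edgeR called 0, with 0 at an unadjusted p under 0.05, and DESeq2 called 0 of the 8 to which it gave an adjusted p. Under ribosomal scaling 1 was called lower. The interactions of mt-Co1 and mt-Co3 were -0.30 ± 0.15 and -0.60 ± 0.30.

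Ribosomal protein and elongation factor genes were called higher in 9 of 52 and lower in none, with a median of 0.30. All 9 lost their call without replicate 3 of WT after ActD. Under ribosomal scaling 0 were higher and 3 lower, but that scaling is set by these same genes and cannot check them. Counts of ribosomal protein genes are uncertain because near-identical copies lie elsewhere in the genome.

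**Figure D4:**
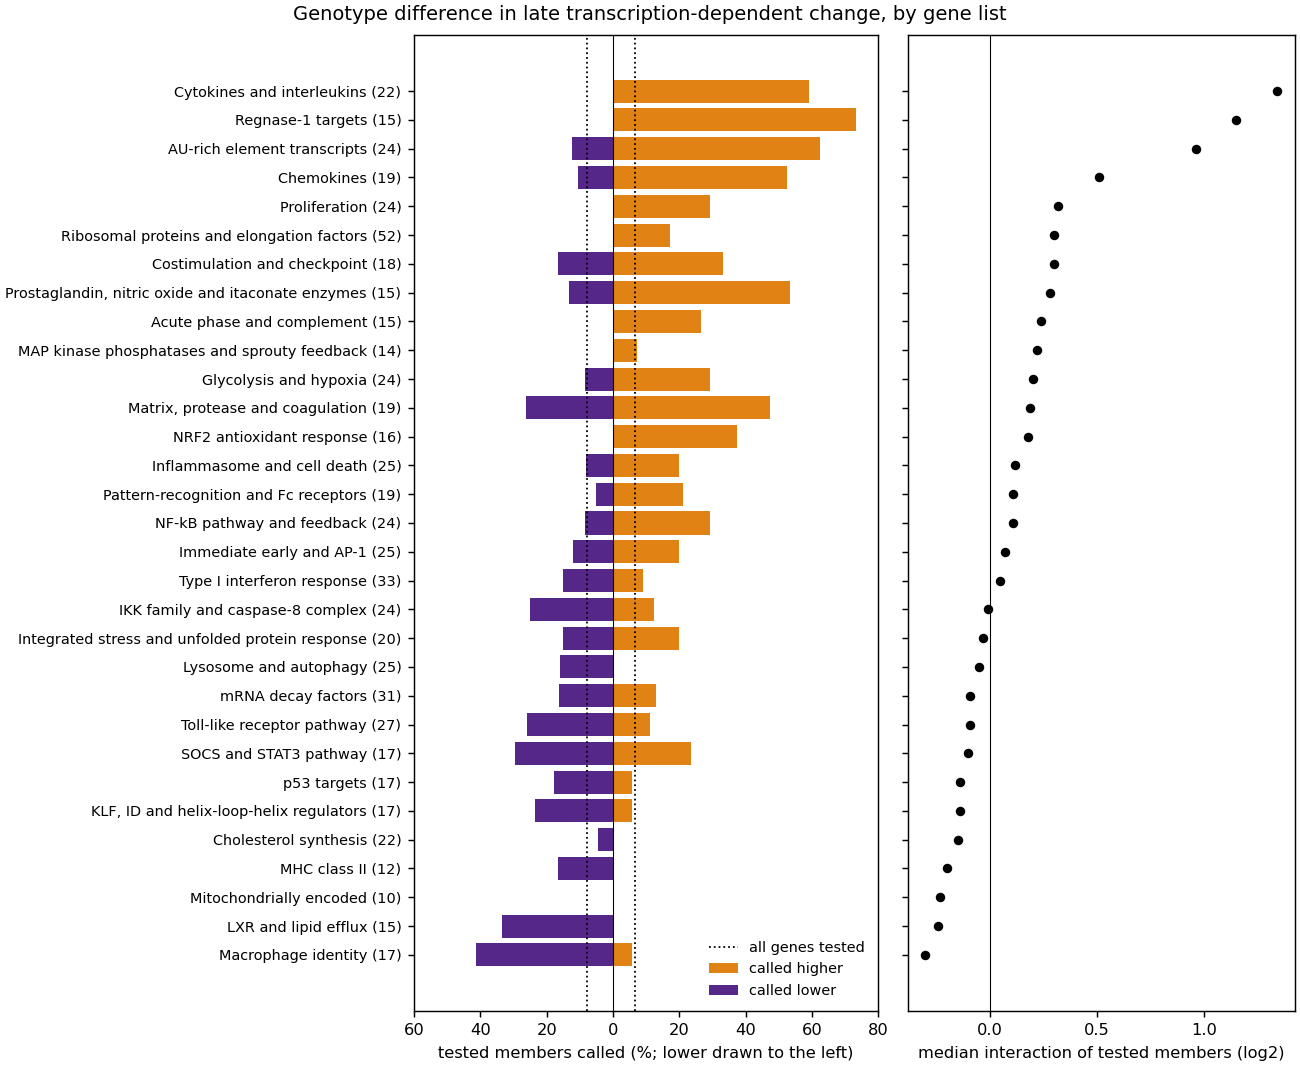
Percent of the tested members of each of 31 gene lists (number tested in brackets) whose interaction was called higher (right) or lower (left), with dotted lines at the 6.71% and 7.94% of all genes, and the median log2 interaction of each list on the right. Cytokines (1.34), Regnase-1 targets (1.15) and AU-rich element transcripts (0.96), which share members, have the highest medians, and macrophage identity (-0.30) the lowest.

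The interaction can be split further with the level at 3 h, before ActD, in 3 more libraries of each genotype. It equals the genotype difference in the change between 3 h and 7 h less the genotype difference in the change under ActD, and all 3 contrasts share libraries. The 3 to 7 h interaction was called higher for 749 genes (5.45%) and lower for 941 (6.84%). The ActD interaction was called higher, meaning more transcript kept under ActD in KO than in WT, for 29 genes (0.211%) and lower for 11 (0.08%). Its call is the test of whether the interaction of a gene differed from its 3 to 7 h interaction. For Il6 the 3 to 7 h interaction was 2.31 and the ActD interaction 0.35, for Irf5 -1.75 and 0.30, and for Il10 1.64 and 0.23, and none of these ActD interactions was called.

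N4bp1 and Slco4a1 were exceptions. N4bp1 is the gene knocked out, so its counts in KO may come from a transcript that lacks the deleted exons. The part of this in its values was not tested. N4bp1 had 86, 85 and 81.3 CPM in KO at 3 h and 125, 147 and 128 CPM in WT at 3 h. After ActD its mean was 87.7 CPM in KO and 57.6 CPM in WT, so that KO lay below WT at 3 h and above it after ActD. The ActD interaction was 1.27 ± 0.11 (edgeR quasi-likelihood, adjusted p = 4.1e-10). The 3 to 7 h interaction was 0.38 and positive, while the interaction between 7 h and ActD was -0.89 ± 0.11. Slco4a1, an organic anion transporter gene, had 15.9, 13.2 and 12.3 CPM in KO at 3 h and 5.02, 4.99 and 3.86 CPM in KO after ActD, against 8.71, 7.91 and 6.4 CPM in WT at 3 h and 0.613, 1.37 and 0.603 CPM in WT after ActD. Its KO libraries were above WT at both times, the more so after ActD, with an ActD interaction of 1.52 ± 0.30. At 7 h it had 10.1, 8.16 and 8.83 CPM in KO against 10.3, 9.05 and 12.1 CPM in WT, which overlapped. Sqstm1, the autophagy receptor p62, averaged 1789 CPM in KO and 1027 CPM in WT after ActD, with an ActD interaction of 0.63 ± 0.08 and an interaction between 7 h and ActD of -0.29 ± 0.08. The decay factor gene Zfp36, the AP-1 gene Fos and the NF-kB cofactor gene Bcl3 also had called ActD interactions, of 0.76, 1.13 and 0.70.

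**Figure D5:**
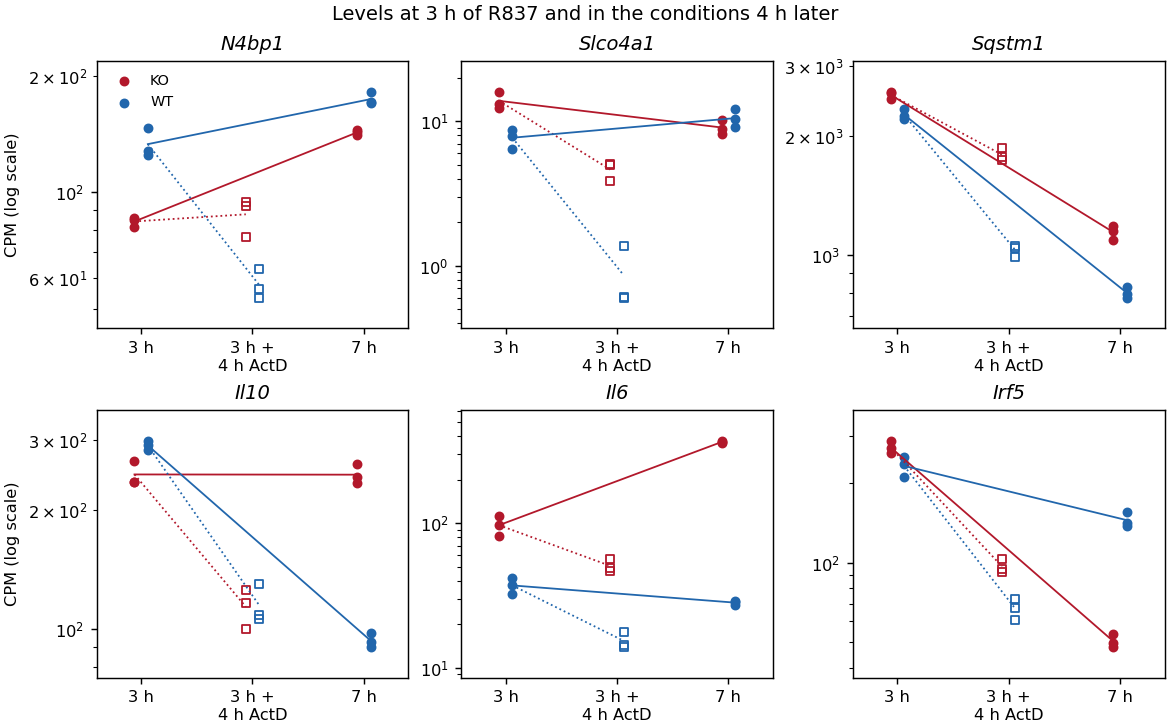
TMM-normalized CPM on a log scale at 3 h of R837, after a further 4 h of ActD and at 7 h of R837 for 6 genes in KO and WT (points are libraries, solid lines join means at 3 h and 7 h, dotted lines join means at 3 h and after ActD). The dotted lines of N4bp1 cross, with means after ActD of 87.7 CPM in KO and 57.6 CPM in WT, while the ActD interactions of Il10, Il6 and Irf5 were 0.23 to 0.35.

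Genes with a called interaction were mostly protein-coding, 93.7% of the higher and 96.7% of the lower ones against 84.8% of all tested. Their median level over the 12 libraries was 47.4 CPM for higher and 26.3 CPM for lower calls, against 10.6 CPM over all tested genes. A call is easier to reach at higher counts, and the part of this in these differences was not tested. The median counted length was 2632 bases for higher and 3777 bases for lower calls, against 2869 bases overall. With the trend of counts with gene length taken out of each library, 1157 genes were called higher and 1062 lower.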

How the data were processed

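RNA-seq of mouse BMDMs was analysed from 36 libraries, 12 of which enter the interaction. Libraries were made with the TruSeq RNA v2 kit, which does not mark strand, from single-end 50 bp reads, per the labels' protocols, so overlapping and antisense genes cannot be told apart. Reads were aligned with GSNAP to GRCm38, per the submitters' processing notes. No source used here names the counting program, annotation release or strand setting. For every library, the authors' deposited file lists each gene's raw count, RPKM value and width. Tests used the counts. The authors' RPKM values served as a check: counts summed to 90.86 to 91.76% of the total they imply. Of 52636 gene identifiers 52403 were named with the supplied gene tables and GENCODE M21. The other 233 held at most 0.0202% of a library.

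edgeR 4.0.16 (R 4.3.3) fitted 1 quasi-likelihood model of 12 groups to all 36 libraries, with TMM scaling (factors 0.821 to 1.024 in the 12 libraries) and filterByExpr, at a biological coefficient of variation of 7.48%. Contrasts were tested with Benjamini-Hochberg adjustment over 13748 genes. The fit was tested on simulated counts. The labels give 3 mice per group and no replicate numbers, so libraries were numbered in record order and not paired. Libraries of different conditions may share mice, in which case p-values treat as independent what is not. No spike-in was used here, so levels are relative to the average transcript.

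The genes named are N4bp1 and 9 cytokines, the 10 largest robust interactions in each direction, the 5 largest in each direction of the crossing, 7 h and ActD classes, and the 2 members with the smallest p in each of 31 lists, 94 in all. Robust means called in each of 12 fits that left out 1 library. Predicted genes were not ranked, and some genes that the rule names are not reported here. List members outside this rule, such as Il19, Il1a, Socs1, Thbd, Tlr7, Nos2, Zfp36 and Fos, were chosen after their values were seen. The members and lists were chosen with earlier results of these data known. Alternatives were RLE and ribosomal scaling, DESeq2 1.42.0, no filter, a filter of 1 CPM in 3 libraries, a threshold of 0.01, only the 12 libraries, a length correction and each library left out. No alternative was added later. A further 9 lists hold markers of cell types.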

Additional observations from a re-analysis of the deposited data

Results flagged for a closer look

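Every called interaction is a difference between genotypes under the same contrast, tested by an interaction term, and there were 2013 such genes. Singled out for a closer look are those in which KO and WT changed in opposite directions with each change called. They come from the 958 genes defined above, of at least 5 CPM and with a call in every fit that left out a library. The 5 largest of 31 positive ones were Smim3 (1.89), Ccrl2 (1.86), Il10 (1.41), Crem (1.26) and Mt2 (1.04), higher at 7 h than after ActD in KO and lower in WT. The 5 most negative of 39 were Cdk20 (-1.83), Irf5 (-2.05), Hip1 (-2.24), Mtss1 (-2.26) and Rab3il1 (-2.58), lower at 7 h than after ActD in KO and higher in WT. The values of single genes were not searched for outlying libraries, since groups held 3.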

How the results depend on the processing

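Of 90 named genes called, 78 kept their direction and call in all 20 alternatives. Of these alternatives 12 were the fits that left out a library. Genes ranked as robust had passed those 12 by selection, so the 78 is no measure of stability for them. Ribosomal scaling gave 220 genes higher and 2671 lower, with 68 and 494 of at least 2-fold, with a median interaction of all genes of -0.29. Under it 9 named genes lost their call, among them Ccl5, Hif1a, Ier3, Lcn2, Pdk1, Tank and Tnfaip2, and Tnf turned to -0.01. At an adjusted p under 0.01, 1082 genes were called, 468 higher and 614 lower, and the 3 to 7 h interaction kept 1066. Leaving out single libraries gave 580 to 1062 genes called higher. The ActD interaction, called in 40 genes, numbered 21 under ribosomal scaling, 76 with DESeq2, 98 without a filter, 12 at 0.01 and 15 to 33 with single libraries left out, lowest without replicate 2 of WT after ActD and 20 without replicate 1 of KO after ActD. The cause of these moves was not tested. No paired analysis was possible because the labels carry no replicate numbers. Genes under a few CPM after ActD, such as Ddit4 and Socs1, have wide errors at this depth.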

Other observations

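Over all genes tested, 6.71% were called higher and 7.94% lower. B and plasma cell markers were called lower in 3 of 10 (Ighm -0.58, Cd79b -0.69, Igha -0.70) and fibroblast markers in 2 of 10 (Col1a1 -0.73, Col1a2 -0.72). Of macrophage markers 1 of 9 was called higher and 3 lower, of osteoclast markers Dcstamp was higher (1.10) and Mmp9 (-0.36) and Atp6v0d2 (-0.29) lower among 7, and of T and NK cell markers Cd4 was lower (-0.54) among 6. Among 5 mast cell and basophil markers edgeR called 0, with 1 at an unadjusted p under 0.05. DESeq2 called 0 of the 2 to which it gave an adjusted p. The 1 erythroid marker tested was not called by edgeR, and DESeq2 gave it no adjusted p. Of neutrophil markers S100a8 was called higher (0.85) and Ltf lower (-0.51) among 12. Of 8 dendritic cell markers tested Ccr7 was lower (-1.82), and its ActD interaction was also called, at 2.05. Ccr7, the receptor that guides cells to lymph nodes, averaged 32.8 CPM in KO at 7 h and 1.39 CPM in KO after ActD, against 16.3 CPM in WT at 7 h and 0.19 CPM in WT after ActD.

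Called interactions beyond those named were seen at low levels. Cass4 had -3.56 ± 0.59, with means of 0.442 CPM in KO at 7 h and 0.44 CPM in KO after ActD, against 1.25 CPM in WT at 7 h and 0.0978 CPM in WT after ActD. Pde4d, a phosphodiesterase of cAMP, had 3.34 ± 0.95, with means of 0.992 CPM in KO at 7 h and 0.0599 CPM in KO after ActD, against 0.17 CPM in WT at 7 h and 0.108 CPM in WT after ActD. These genes were named after their values were seen.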
